A study of Musa balbisiana with 10 samples.

Results

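Some regions of the Klutuk Wulung banana genome were almost silent in untreated fruit pulp and carried clear RNA signal after ethylene, and these regions were described in every library. A region was a stretch of a chromosome or scaffold obtained by merging the overlapping loci of at least 300 bp in the expression tables of all libraries. Its value in a library was the sum of the FPKM (fragments per kilobase of transcript scaled to the mapped fragments of the library) of the loci inside it. Members had a mean below 1 FPKM in control fruit on day 1 and also on day 7, and a mean of at least 5 FPKM in ethylene-treated fruit on at least 1 of those days. The rule kept 171 of 27929 regions with a row in every table, or 0.612%.

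Klutuk Wulung is a seeded banana of *Musa balbisiana*, a diploid of the BB genome group. Each library was made from total RNA of the fruit pulp, and 4 groups were sequenced, giving 10 libraries. Ethylene-treated fruit had been held in a glass container with 100 ul/L ethylene gas and was afterwards stored outside it at room temperature. Day 7 therefore came after the fruit had left the container, and the days are not a course under constant ethylene. This fruit was sampled on day 7 (3 libraries, A, B and C) and day 1 (2 libraries, A and C). Control fruit of the same cultivar received no ethylene and was sampled on day 7 (libraries A, B and C) and day 1 (libraries A and B). The study names the libraries biological replicates, but the sources do not say that each came from its own fruit, so the spread reported here may be partly technical. Of the libraries 7 were read from both ends, and ethylene day 7 A, control day 7 A and control day 1 A from a single end. The values of a group are given in the order of these letters.

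Banana is a climacteric fruit: ripening is accompanied by a burst of respiration and of the gaseous hormone ethylene, and ethylene from outside starts the programme early. The hormone is bound by receptors at the endoplasmic reticulum. Binding relieves a repressed signalling chain and lets transcription factors of the EIN3 family switch on target genes, among them further transcription factors. In ripening pulp the downstream programme is known for the breakdown of starch to sugar, the loosening of cell walls and the formation of aroma compounds. Gene products are not assigned to the members in the sources used here. The members are therefore named by the Mba identifier of the annotated gene inside them, or by position where no identifier lies inside. Positions refer to the DH PKW v1.1 assembly, counted from 1, and the tables give loci without exons, introns or UTRs. For the same reason the fruit pulp label could not be checked against marker genes.

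"Switched on" describes a low level in control pulp, not a complete absence. Of the 171 members, 7 were at 0 FPKM in all 5 control libraries, and 62 were at 0 in at least 1 of them. In single libraries, 40 members reached at least 1 FPKM in some control library, the highest being 1.86 FPKM. The group means of the members had a median of 5.57 FPKM on ethylene day 7, 8.08 FPKM on ethylene day 1, 0.223 FPKM on control day 7 and 0.332 FPKM on control day 1. The members were chosen by these FPKM values, so the difference between ethylene-treated and control fruit is a description and carries no test here. In 170 of the 171 members the lowest library on the ethylene day with the higher mean lay above every control library. Each value in the tables comes with bounds on either side, and by these bounds 169 members were separated and 2 overlapped. The thresholds of the rule favour such separation and its share over all regions was not computed, so nothing is read from these counts.

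**Figure D1:**
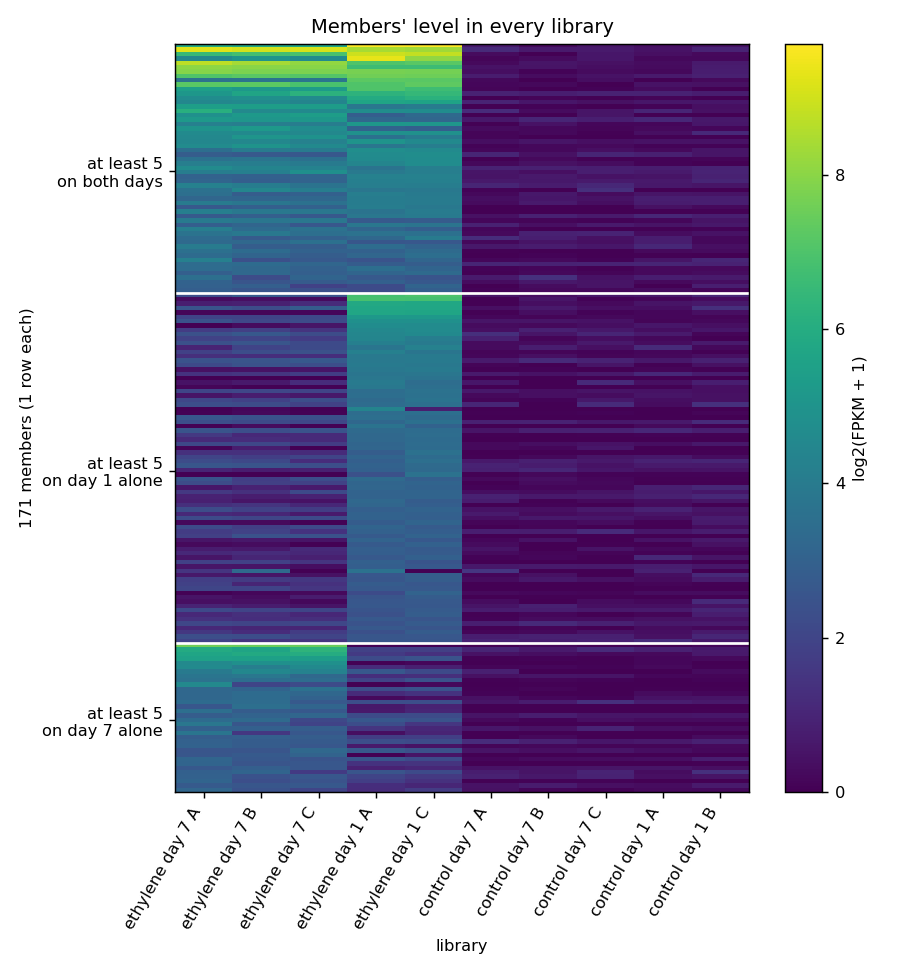
Level of the 171 members (rows) in the 10 libraries (columns) as log2(FPKM + 1), with the ethylene-treated libraries on the left and the control libraries on the right. White lines part the 57 members of at least 5 FPKM on both ethylene days, the 80 of at least 5 FPKM on day 1 alone and the 34 of at least 5 FPKM on day 7 alone, and the control columns are dark in all 3 blocks because the rule requires it.

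Together the members took up 0.753% to 0.814% of all FPKM summed over regions in the ethylene day 7 libraries, and 1.01% to 1.09% in the ethylene day 1 libraries. The corresponding shares were 0.0147% to 0.0153% on control day 7 and 0.0152% to 0.0184% on control day 1. Most members were moderate: the higher of their ethylene means had a median of 9.64 FPKM, with 89 members from 5 to 10 FPKM, 61 from 10 to 50, 7 from 50 to 100 and 14 at 100 FPKM or more. The summed signal was held by few regions. The 10 highest members carried 61.1% of the members' summed mean on ethylene day 7 and 59.2% on ethylene day 1, and 7 members were in both lists of 10.

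A rule in the opposite direction, with means under 1 FPKM in both ethylene groups and at least 5 FPKM in a control group, found 7 regions among 10816 with both ethylene means under 1 FPKM, or 0.0647%. The 171 members were 1.57% of the 10876 regions with both control means under 1 FPKM. Both counts come from thresholds alone and were not tested.

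The call for ethylene against control on each day is given only to show the background. With limma on log2(FPKM + 1) and an adjusted p below 0.05, 17.1% of the 16821 regions with a mean of at least 1 FPKM were higher in ethylene-treated fruit on day 1 and 24.8% were lower, and 162 members were among those higher. On day 7 the background was 8.75% higher and 4.71% lower, and 142 members were among those higher. All 171 members passed the filter of a mean of at least 1 FPKM, the lowest mean being 1.22 FPKM, and since the rule used this contrast nothing is read from these counts. The median difference, ethylene minus control on the log2(FPKM + 1) scale, was 2.22 on day 7 and 2.78 on day 1 for the members. It was -0.11 on day 7 and -0.24 on day 1 over all regions tested. Adding 1 to each value makes these differences smaller than the change in FPKM itself for regions with such low control levels.

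The 14 members of at least 100 FPKM included the regions named here for their level. Mba05_g22280 (chromosome 5, positions 34873809 to 34875507) was the highest on ethylene day 1. Its levels were 63.1, 56.8 and 54.5 FPKM on ethylene day 7, 826 and 805 FPKM on ethylene day 1, 0.566, 0.183 and 0.472 FPKM on control day 7 and 0.270 and 0.394 FPKM on control day 1. The libraries of each group lay close together, no groups overlapped between ethylene and control, and the ethylene level was far lower on day 7 than on day 1. Mba06_g35270 (chromosome 6, positions 39568216 to 39568759), a region of only 544 bp, had 91.8, 109 and 118 FPKM on ethylene day 7 and 495 and 444 FPKM on ethylene day 1, against 0.231, 0 and 0.505 FPKM on control day 7 and 0.314 and 0.199 FPKM on control day 1. Mba00_g07210 lies on an unplaced scaffold (Bscaffold104, positions 28418 to 29281) and had 11.7, 12.0 and 12.4 FPKM on ethylene day 7 and 149 and 146 FPKM on ethylene day 1, against 0.150, 0 and 0.290 FPKM on control day 7 and 0 and 0.189 FPKM on control day 1. All 3 regions were lower on day 7 than on day 1 after ethylene in every library.

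Regions of similar abundance behaved differently between the days. Mba04_g31600 (chromosome 4, positions 36778215 to 36779810) was the highest member on ethylene day 7, with 602, 522 and 553 FPKM, and had 340.0 and 319 FPKM on ethylene day 1. Its control levels were 1.22, 0.635 and 0.635 FPKM on day 7 and 0.389 and 0.978 FPKM on day 1. The ethylene days did not overlap, with day 7 higher, and control day 7 A, a single-end library, was the highest control. The region with Mba05_g10260 and Mba05_g10270 (chromosome 5, positions 7938513 to 7944221) joins neighbouring annotated genes, whose signals cannot be separated here. It had 426, 333 and 281 FPKM on ethylene day 7, 129.7 and 148 FPKM on ethylene day 1, 0.191, 0.444 and 0.354 FPKM on control day 7 and 0.250 and 0.616 FPKM on control day 1. Mba09_g21670 (chromosome 9, positions 33303396 to 33305064) had 260.0, 249.7 and 247 FPKM on ethylene day 7 and 97.8 and 98.0 FPKM on ethylene day 1, against 0.400, 0.438 and 0.297 FPKM on control day 7 and 0.218 and 0.663 FPKM on control day 1. In both regions every day 7 library after ethylene exceeded both day 1 libraries.

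A further group differed less between the days. Mba04_g19130 (chromosome 4, positions 25046340 to 25050148) had 245, 220.0 and 221 FPKM on ethylene day 7 and 209 and 201 FPKM on ethylene day 1, against 0.270, 0.0771 and 0.215 FPKM on control day 7 and 0.148 and 0.719 FPKM on control day 1. Mba07_g14170 (chromosome 7, positions 12423374 to 12424203) had 149, 151 and 120.1 FPKM on ethylene day 7 and 130.4 and 154 FPKM on ethylene day 1, against 0.122, 0.157 and 0 FPKM on control day 7 and 0.396 and 0.339 FPKM on control day 1. The ethylene libraries of Mba07_g14170 overlapped between the days, while those of Mba04_g19130 differed by little. A region on chromosome 3 without an identifier (positions 1953909 to 1956788) had 129.8, 149 and 135 FPKM on ethylene day 7 and 193 and 189 FPKM on ethylene day 1, against 0.664, 0.253 and 0.375 FPKM on control day 7 and 0.644 and 0.822 FPKM on control day 1. Here each day 7 library after ethylene was below both day 1 libraries.

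In 1 of the abundant regions the replicates themselves differed widely. A stretch of 33578 bp on chromosome 9 without an identifier (positions 37396306 to 37429883) had 21.7, 31.0 and 24.7 FPKM on ethylene day 7, and 649.8 and 267 FPKM in ethylene day 1 A and C. Its control values were 0.104, 0.233 and 0.483 FPKM on day 7 and 0.148 and 0.155 FPKM on day 1. Its ethylene day 1 mean of 458 ± 271 FPKM (SD, n = 2) is therefore uncertain, although both libraries lay above all others.

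**Figure D2:**
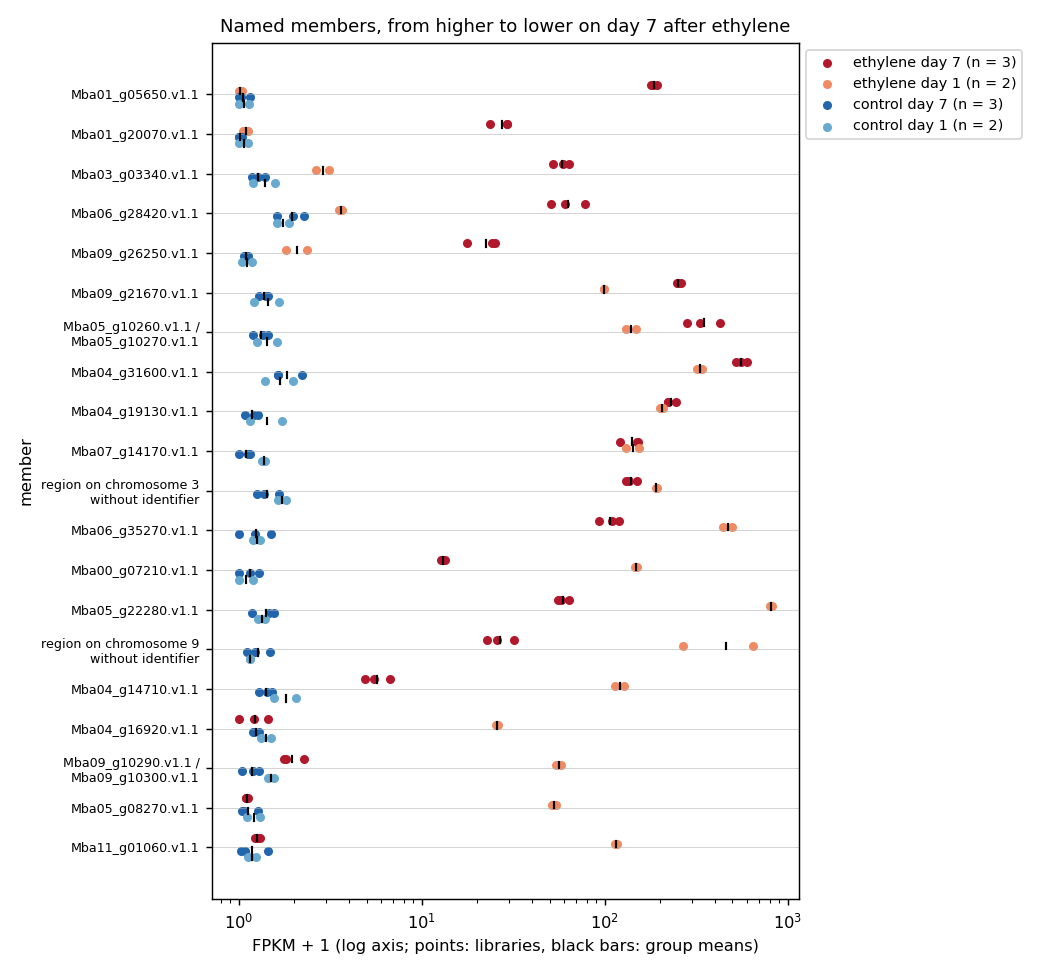
FPKM + 1 on a log axis for the 20 named members (rows), with 1 point for each library and a black bar at each group mean (n = 3 on day 7, n = 2 on day 1 for each treatment). From top to bottom the ethylene day 7 points move from far above the ethylene day 1 points, as in Mba01_g05650, to far below them, as in Mba11_g01060, while the control points stay near 1, the value of no signal.

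The 2 days let in different sets of regions. Both days met the threshold of 5 FPKM in 57 members, day 1 alone in 80 and day 7 alone in 34. Of the 80 regions let in by day 1 alone, 50 still had a mean of 1 to 5 FPKM on ethylene day 7 and 30 were under 1 FPKM, the limit set for control fruit. Among the 34 let in by day 7 alone, 25 had 1 to 5 FPKM on ethylene day 1 and 9 were under 1 FPKM.

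The level on ethylene day 7 was compared with that on ethylene day 1 in the same limma fit over all 16821 regions. The rule takes either day and so does not fix the direction of this contrast over the whole set, but it used the same values, and within the sets let in by a single day the direction is fixed by the choice. Across all regions 14.3% were higher on day 7 and 11.0% were lower, so the background leans slightly towards day 7, with a median difference of 0.11 on the log2(FPKM + 1) scale. Of the members, 38 (22.2%) were higher on day 7 and 95 (55.6%) were lower, with a median difference of -0.94, and 38 were not called. Of the lower calls, 77 came from the 80 members let in by day 1 alone, and of the higher calls, 27 came from the 34 let in by day 7 alone. The 57 members above the threshold on both days divided into 11 higher on day 7, 18 lower and 28 not called, with a median difference of -0.09. In 146 members the ethylene libraries of the days did not overlap, and these included all 133 called members. The share of all tested regions without overlap was not computed, and the sets let in by a single day were chosen on these values. Nothing is therefore read from this count.

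**Figure D3:**
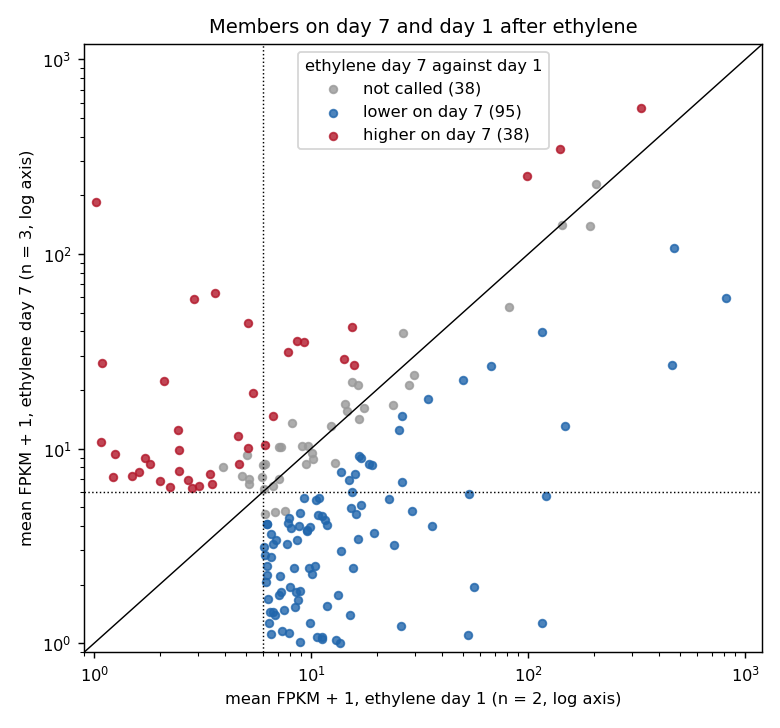
Mean FPKM + 1 of each of the 171 members on ethylene day 7 (vertical, n = 3) against ethylene day 1 (horizontal, n = 2), both on log axes, with the line of equality and dotted lines at the threshold of 5 FPKM. Red points are the 38 members called higher on day 7, blue points the 95 called lower and grey points the 38 not called by limma, and no member lies below both dotted lines because of the rule.

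Of the abundant regions, 7 were among the 10 highest on each of the ethylene days, so either day would have named them. They were chosen by high values in the same libraries that gave the p-values below, which are therefore descriptive. Mba05_g22280 was lower on day 7 by a log2(FPKM + 1) difference of -3.79 (SE 0.18, limma adjusted p = 1.53e-06). The difference was -2.14 (SE 0.21, adjusted p = 0.000105) for Mba06_g35270. In the other direction, the region of Mba05_g10260 and Mba05_g10270 was higher on day 7 by 1.30 (SE 0.22, adjusted p = 0.0019). For Mba04_g31600 the difference was 0.76 (SE 0.21, adjusted p = 0.0231), a call that was lost without either ethylene day 1 library (adjusted p = 0.103 without A and 0.145 without C), or when ethylene day 7 A (0.0653) or C (0.0601) was left out.

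The other 3 of these regions were not called. Mba04_g19130 differed by 0.16 (SE 0.20, limma adjusted p = 0.615) and Mba07_g14170 by -0.03 (SE 0.18, adjusted p = 0.939). The region on chromosome 3 differed by -0.47 (SE 0.18, adjusted p = 0.0836) and was called lower on day 7 under 3 of the alternatives. These p-values do not show that the level was equal on both days. The sign for Mba07_g14170 turned under 3 alternatives, to 0.19 with quantile normalization, 0.08 without ethylene day 7 C and 0.09 without ethylene day 1 C. Mba00_g07210 and the stretch on chromosome 9 were named for their level on day 1 alone and Mba09_g21670 for its level on day 7 alone, which favours that day, so their differences are given without a p-value. They were -3.51 (SE 0.19), -3.97 (SE 0.34) and 1.36 (SE 0.18).

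On the log2(FPKM + 1) scale, though not in FPKM itself, the largest day 7 excesses were found in regions that had been near control level on day 1. Mba01_g05650 (chromosome 1, positions 4160265 to 4161632) had 193, 183 and 178 FPKM on ethylene day 7 and 0.0426 and 0 FPKM on ethylene day 1, against 0, 0.149 and 0.0321 FPKM on control day 7 and 0 and 0.136 FPKM on control day 1. The ethylene day 1 libraries lay within the range of the controls, and only the 3 ethylene day 7 libraries stood above it. Mba01_g20070 (chromosome 1, positions 15435448 to 15436421) was also high on day 7 alone, with 22.8, 28.1 and 28.4 FPKM on ethylene day 7 and 0.0536 and 0.128 FPKM on ethylene day 1, against 0, 0 and 0.0421 FPKM on control day 7 and 0.128 and 0 FPKM on control day 1. Its higher ethylene day 1 library was level with the highest control library. The log2(FPKM + 1) difference, day 7 minus day 1, was 7.51 (SE 0.18) for Mba01_g05650 and 4.65 (SE 0.18) for Mba01_g20070. Both were named for the size of this difference, which is therefore given without a p-value.

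Other late regions had already left the control range on day 1. Mba03_g03340 (chromosome 3, positions 2460312 to 2463192) had 51.2, 58.0 and 63.0 FPKM on ethylene day 7 and 2.13 and 1.63 FPKM on ethylene day 1, against 0.390, 0.275 and 0.179 FPKM on control day 7 and 0.193 and 0.587 FPKM on control day 1. Mba06_g28420 (chromosome 6, positions 34024612 to 34039711), in a region of 15100 bp, had 59.5, 49.8 and 77.4 FPKM on ethylene day 7 and 2.67 and 2.53 FPKM on ethylene day 1, against 0.988, 0.626 and 1.27 FPKM on control day 7 and 0.873 and 0.622 FPKM on control day 1. Mba09_g26250 (chromosome 9, positions 36900906 to 36906529) had 24.1, 16.7 and 23.3 FPKM on ethylene day 7 and 1.37 and 0.809 FPKM on ethylene day 1, against 0.0821, 0.120 and 0.0631 FPKM on control day 7 and 0.176 and 0.0405 FPKM on control day 1. In all 3 the ethylene day 1 libraries lay above every control library and below every ethylene day 7 library, and the differences between the ethylene days were 4.34, 4.11 and 3.42 on the log2(FPKM + 1) scale.

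The opposite pattern, a strong signal on day 1 that was almost gone on day 7, was clearest in Mba11_g01060 (chromosome 11, positions 1042970 to 1044767). It had 0.264, 0.312 and 0.220 FPKM on ethylene day 7 and 116 and 113 FPKM on ethylene day 1, against 0.0278, 0.449 and 0.0767 FPKM on control day 7 and 0.124 and 0.242 FPKM on control day 1. Mba05_g08270 (chromosome 5, positions 6359960 to 6361734) had 0.0943, 0.0925 and 0.120 FPKM on ethylene day 7 and 52.9 and 50.8 FPKM on ethylene day 1, against 0.0401, 0.276 and 0.0726 FPKM on control day 7 and 0.115 and 0.303 FPKM on control day 1. By day 7 the ethylene libraries of these regions lay within the range of the control libraries. Mba04_g16920 (chromosome 4, positions 19812174 to 19813301) had 0, 0.217 and 0.444 FPKM on ethylene day 7 and 25.2 and 24.6 FPKM on ethylene day 1, against 0.213, 0.201 and 0.294 FPKM on control day 7 and 0.505 and 0.324 FPKM on control day 1, again with the day 7 values of both treatments overlapping. The day 7 minus day 1 differences were -6.52, -5.58 and -4.42 on the log2(FPKM + 1) scale.

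A partial return was seen in the others named for this pattern. The region of Mba09_g10290 and Mba09_g10300 (chromosome 9, positions 7495446 to 7497338) had 0.772, 0.817 and 1.27 FPKM on ethylene day 7 and 56.8 and 53.5 FPKM on ethylene day 1, against 0.0473, 0.285 and 0.192 FPKM on control day 7 and 0.443 and 0.557 FPKM on control day 1. Mba04_g14710 (chromosome 4, positions 11865408 to 11867406) had 3.90, 5.73 and 4.48 FPKM on ethylene day 7 and 113 and 126 FPKM on ethylene day 1, against 0.426, 0.289 and 0.518 FPKM on control day 7 and 0.556 and 1.06 FPKM on control day 1. In both, every ethylene day 7 library was above every control library of either day, and the ethylene difference was -4.85 for the pair of genes and -4.41 for Mba04_g14710 on the log2(FPKM + 1) scale.

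The sets let in by a single day were also set against control on the other day. Of the 80 members let in by day 1 alone, 51 (63.8%) were called higher than control on day 7, where 8.75% of all tested regions were, and 3 of the 30 under 1 FPKM on ethylene day 7 were among them. In 8 of those 30 every ethylene day 7 library exceeded every control day 7 library, a share that was not computed over all tested regions. Of the 34 let in by day 7 alone, 26 (76.5%) were called higher than control on day 1, where 17.1% of all tested regions were. The rule held the control values used in these calls below 1 FPKM, so nothing is read from these counts. The difference between ethylene-treated and control fruit was itself called as changed between the days in 97 members, being larger on day 7 in 27 (background 8.31%) and smaller in 70 (background 5.9%).

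Control pulp was compared between the days in the same way. No member was called between control day 7 and control day 1 by limma, where the background over all regions was 0.262% higher and 1.05% lower on day 7. Without adjustment 3 members had p below 0.05, all lower on day 7, against 12.6% of all regions, and the lowest adjusted p among members was 0.0782. The rule holds both control means below 1 FPKM, which leaves little room for a difference on the log2(FPKM + 1) scale, and the members passed the filter through the ethylene-treated libraries alone. When the filter was applied to the control libraries alone, 0 members were tested, so the absence of calls is not read against the background. With 0.1 instead of 1 added to the values 2 members were called, and without the filter or with the sequencing layout as a term 1 was called, each lower on day 7.

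The members of at least 5 FPKM on both days that were higher on day 7 also included Mba05_g14710, Mba03_g21270 and the region of Mba09_g24740 and Mba09_g24750, with day 7 means of 34.7, 30.4 and 34.3 FPKM. Their day 1 means were 7.63, 6.84 and 8.31 FPKM. The rest of the 11 were Mba10_g27150, Mba10_g04910, the regions of Mba08_g04340 with Mba08_g04350 and of Mba01_g15870 with Mba01_g15880, and a region without identifier on chromosome 9 (positions 13140487 to 13153409). The 18 lower on day 7 further held the region of Mba02_g14130 and Mba02_g14140, with 38.9 FPKM on ethylene day 7 and 115 FPKM on ethylene day 1, and Mba03_g16150, with 25.4 and 66.1 FPKM on those days. Mba01_g25120, Mba05_g04800, Mba07_g00160 and Mba10_g20770 followed with ethylene day 1 means of 24.5 to 49.0 FPKM. Completing the 18 were Mba07_g16100, Mba06_g19490, Mba06_g17500, Mba09_g18260, Mba09_g19430, Mba09_g19420, Mba04_g21890 and a region without identifier on chromosome 9 (positions 2702293 to 2706163).

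Of the 28 members on both days without a call, the identifiers beyond those above were Mba01_g10650, Mba02_g16120, Mba04_g38950, Mba06_g17740, Mba07_g12740, Mba08_g02910, Mba08_g25440, Mba08_g30280, Mba10_g04720, Mba10_g14400 and Mba11_g03210, and the pairs Mba08_g30380 with Mba08_g30390 and Mba09_g26560 with Mba09_g26570. The others had no identifier. The most abundant of those was on chromosome 6 (positions 6513887 to 6522379), with means of 52.5 FPKM on ethylene day 7 and 80.4 FPKM on ethylene day 1.

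Among the members let in by day 1 alone, those with an ethylene day 1 mean above 20 FPKM and not yet described were Mba07_g10310 (35.0 FPKM), Mba04_g07850 (28.2 FPKM), Mba08_g00930 (23.1 FPKM), a region on chromosome 7 (positions 21480210 to 21482906, 21.9 FPKM) and a region on Bscaffold73 (positions 99339 to 115929, 52.5 FPKM). All had ethylene day 7 means between 2.19 and 4.87 FPKM. From 10 to 20 FPKM on ethylene day 1 came Mba06_g05690 with Mba06_g05700, Mba06_g29830, Mba07_g10340, Mba07_g07900, Mba06_g28880, Mba11_g03160, Mba03_g07170, Mba06_g21340, Mba04_g01390, Mba10_g24420, Mba04_g21080, Mba10_g13590 with Mba10_g13600, Mba08_g24910 with Mba08_g24920, Mba06_g35110, Mba08_g17080, Mba01_g15090 with Mba01_g15100, Mba07_g00720 and Mba07_g12820. From 7 to 10 FPKM came Mba07_g24710, the chromosome 1 region at positions 20044142 to 20052721, Mba02_g21510, the chromosome 11 region at positions 24123204 to 24130320, Mba05_g07240, Mba05_g25050, Mba05_g05110, Mba08_g14690, Mba10_g05750, Mba04_g11420, the chromosome 8 region at positions 627153 to 632545, the chromosome 9 region at positions 11544255 to 11569414, Mba08_g15030, Mba01_g26980 with Mba01_g26990 with Mba01_g27000, Mba01_g29350, Mba04_g26670, Mba09_g23800, the chromosome 9 region at positions 4156373 to 4158430, Mba08_g28950, Mba04_g31270, Mba04_g17530, the chromosome 1 region at positions 20579476 to 20593628 and Mba06_g25490. The lowest, from 5 to 7 FPKM, were the chromosome 2 region at positions 19689550 to 19699715, Mba05_g16220, Mba02_g14300, Mba04_g16030, Mba04_g23160, Mba11_g18740, Mba01_g02580, Mba04_g12480, Mba08_g25960, Mba05_g02290, Mba01_g15770, Mba11_g01960, the chromosome 4 region at positions 39712191 to 39715558, Mba01_g24380, Mba11_g02120, Mba02_g10880, Mba05_g09370, Mba06_g34850, Mba02_g02700, Mba06_g03940, Mba10_g08730 with Mba10_g08740, Mba03_g11720, Mba09_g12840, Mba09_g14610, Mba03_g00540, Mba10_g10550, the chromosome 5 region at positions 32285623 to 32293489, Mba01_g25720 and Mba06_g17560. Of these sets, 3 members were not called lower on day 7: Mba04_g23160, Mba01_g25720 and the chromosome 4 region at positions 39712191 to 39715558.

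Among the members let in by day 7 alone, Mba04_g25460 had a mean of 43.4 FPKM on ethylene day 7 and Mba05_g27030 of 18.3 FPKM, with 4.12 and 4.38 FPKM on ethylene day 1. The others not yet described had 5.24 to 11.5 FPKM on ethylene day 7. They were Mba02_g01950, Mba04_g35010, Mba06_g09120, Mba06_g10190, Mba02_g05610, Mba04_g21110, Mba01_g08920, Mba02_g16780, Mba04_g25440, Mba11_g09210, Mba02_g16950, Mba05_g12650, Mba06_g16830, Mba05_g31140, Mba07_g01010, the chromosome 7 region at positions 17910364 to 17922569, Mba05_g01170, Mba03_g09550, Mba08_g01100, Mba05_g13940, Mba07_g11960, Mba05_g01130, Mba04_g07450, the chromosome 4 region at positions 33312327 to 33318637, Mba09_g20990, Mba07_g24900 and Mba05_g24000. Of the 34, 7 were not called higher on day 7, and these were Mba01_g08920, Mba02_g16950, Mba03_g09550, Mba04_g07450, Mba05_g12650, Mba05_g13940 and the region without identifier on chromosome 7.

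The 7 regions without any control signal came from both sets. On chromosome 10, Mba10_g24420 (chromosome 10, positions 39256521 to 39258335) had 13.3 and 11.9 FPKM on ethylene day 1 and was listed at 0 in the other 8 libraries, ethylene day 7 included. Mba08_g01100 (chromosome 8, positions 1089304 to 1095915) was the reverse, with 5.07, 5.77 and 7.55 FPKM on ethylene day 7 and 0 and 0.432 FPKM on ethylene day 1. Mba02_g16780 had 5.27, 10.7 and 8.02 FPKM on ethylene day 7 and 0.524 and 0.924 FPKM on ethylene day 1. The days did not overlap in any of these. Mba04_g23160, a region of 537 bp, had 2.59, 4.43 and 4.40 FPKM on ethylene day 7 and 5.69 and 7.38 FPKM on ethylene day 1, with all ethylene day 1 libraries higher. The remaining regions at 0 in control pulp were Mba05_g31140, Mba05_g12650 and Mba07_g00720, in which single libraries stood out. No fold is given against a group at 0, and the tables do not give the number of fragments behind a locus.

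The spread between replicates was read as the highest over the lowest library. Of the 137 members with an ethylene day 1 mean of at least 5 FPKM, 125 had libraries within 1.5 times of each other and 6 differed by more than 2 times. Of the 91 with an ethylene day 7 mean of at least 5 FPKM, 58 had their 3 libraries within 1.5 times and 13 spanned more than 2 times. A span over 3 libraries is wider than one over 2 at equal spread, so the days are not compared. The single-end library ethylene day 7 A was the highest of its group in 49 of those 91 members (53.8%), compared with 60.7% of the 11196 tested regions of at least 5 FPKM in that group.

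A few memberships rested on 1 library. Mba07_g00720 had 0, 0.135 and 0 FPKM on ethylene day 7 and 19.7 and 0.713 FPKM in ethylene day 1 A and C, with 0 in all controls. The chromosome 4 region at positions 39712191 to 39715558 had 1.83, 9.28 and 0 FPKM on ethylene day 7 and 11.6 and 0 FPKM on ethylene day 1, against 1.86, 0 and 0 FPKM on control day 7 and 0.865 and 0 FPKM on control day 1. This region overlapped between ethylene and control and held the highest control value of the set. Mba06_g09120 had 22.8, 3.02 and 3.69 FPKM on ethylene day 7 and 0 and 0.151 FPKM on ethylene day 1, with ethylene day 7 A far above B and C. Mba05_g31140 (12.5, 1.99 and 5.20 FPKM on ethylene day 7) and Mba05_g12650 (13.3, 5.04 and 2.89 FPKM on ethylene day 7) also had their highest value in that library. The other member whose bounds overlapped between ethylene and control was Mba04_g07450, with 6.79, 7.82 and 2.11 FPKM on ethylene day 7 and 4.85 and 3.47 FPKM on ethylene day 1, against 0.692, 0.422 and 0.938 FPKM on control day 7 and 0.244 and 1.57 FPKM on control day 1. When every single library rather than the group mean had to pass the thresholds, 110 members were left.

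The same measure was also read in libraries that took no part in the group means. For this, each library in turn was left out of the rule and the resulting members were looked up in it. Without ethylene day 7 A, the rule let in 84 regions through ethylene day 7, and 80 of them had at least 5 FPKM in that library. The counts were 78 of 93 for ethylene day 7 B, 81 of 93 for ethylene day 7 C, 120 of 142 for ethylene day 1 A and 120 of 135 for ethylene day 1 C. For the control limit, 157 of 170 regions were under 1 FPKM in control day 7 A, 159 of 166 in control day 7 B and 158 of 172 in control day 7 C. The held-out control day 1 libraries had 147 of 169 regions under 1 FPKM in A and 147 of 179 in B. In each library the level held for most but not all regions. The left-out library still helped to define the regions, which were merged over all libraries and had to be listed in each. The share of all regions that passed these limits was not computed, so the counts are a description.

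Near the thresholds, regions on either side had close values. Just inside the ethylene limit were Mba06_g17560 with an ethylene day 1 mean of 5.05 FPKM and Mba01_g25720 with 5.13 FPKM. Just outside were a region on chromosome 1 (positions 9774047 to 9778070) with 4.96 FPKM on ethylene day 1 and Mba06_g34270 with 4.87 FPKM on ethylene day 7. At the control limit, the chromosome 7 region at positions 21480210 to 21482906 (0.975 FPKM) and Mba03_g00540 (0.962 FPKM), both on control day 7, were inside. Mba03_g03800 (1.01 FPKM on control day 1) and a region on chromosome 10 (positions 25416331 to 25422555, 1.02 FPKM on control day 7) were outside.

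The rule did not use gene annotation. An Mba identifier lay inside 142 of the 171 members (83.0%), compared with 34.5% of the tested regions and 56.8% of all regions. The rule did ask for low control levels, and neither of these sets is limited in that way. The share among regions with both control means under 1 FPKM was not computed, so nothing is read from the difference. A single identifier was found in 128 members, 2 in 13 and 3 in 1, the last being Mba01_g26980, Mba01_g26990 and Mba01_g27000, while 29 members had none. Of the 157 identifiers, 130 had the span of a gene in the RefSeq table of the BananaB_V1 assembly, and each of these carried the same number in its locus tag and was listed as protein coding. Mba05_g22280, for example, is C4D60_Mb05t22280 there. Of all 157, 26 identifiers were on chromosomes 7 and 10 or on scaffolds. Within the members, identifiers labelled 24.4% of the rows in ethylene-treated libraries and 59.5% in control libraries, the remaining rows being loci assembled anew in each library.

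Members were also shorter at the median than tested regions and than all regions. Their median width was 2881 bp, with a range of 396 to 100058 bp, against 6790 bp for tested regions and 4384 bp for all regions. The longest, with Mba02_g01950, had the same span in all tables and 12.6, 13.3 and 8.63 FPKM on ethylene day 7 and 1.38 and 1.46 FPKM on ethylene day 1. The span was identical in all tables for 36 members (21.1%), compared with 6.71% of tested and 36.6% of all regions. A median of 3 different spans contributed to a member and 11 to a tested region, and 57 members had more than 1 row in some library. The rule limits the control levels of members and not those of tested regions, so nothing is read from these differences in span. The stretch covered by loci was longer on average in ethylene-treated than in control libraries for 116 members (67.8%), shorter for 8 and equal for 47, whereas 42.2% of tested regions were longer. Its median ratio, ethylene over control, was 1.01 in members and 1 in tested regions. FPKM is divided by length and the spans differ, and the part of span in the levels of ethylene-treated against control fruit was not tested. Of the 36 members of equal span, 31 were called between the ethylene days, 8 higher and 23 lower on day 7. That comparison does not bear on the difference from control.

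The members were spread over all 11 chromosomes. Chromosome 4 held 23, chromosome 5 20, chromosome 9 19, chromosome 6 18, chromosome 8 17, chromosomes 1 and 7 15 each, chromosome 2 13, chromosome 10 11, chromosome 3 10 and chromosome 11 8, with 2 on scaffolds. Relative to the regions with a row in every table, their share was highest on chromosome 9 (0.909%) and lowest among the chromosomes on chromosome 11 (0.414%). On scaffolds it was 0.112% of 1791 regions.

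In 9 places a pair of members lay within 50 kb of each other, involving 18 members. The closest pair was Mba04_g25440 and Mba04_g25460 on chromosome 4, 538 bp apart and both let in by day 7 alone. Mba04_g25440 had 10.6, 6.08 and 5.38 FPKM on ethylene day 7 and 0.578 and 1.03 FPKM on ethylene day 1, and Mba04_g25460 had 45.5, 43.9 and 40.7 FPKM on ethylene day 7 and 3.60 and 4.64 FPKM on ethylene day 1. On chromosome 7, Mba07_g16100 lay 1132 bp from the region at positions 21480210 to 21482906. Mba07_g16100 had 6.25, 5.54 and 5.35 FPKM on ethylene day 7 and 24.6 and 25.7 FPKM on ethylene day 1, and its neighbour had 4.31, 5.40 and 3.80 FPKM and 20.8 and 23.0 FPKM on those days. In both pairs the neighbours changed in the same direction between the days. For both regions of the chromosome 4 pair, and for the chromosome 7 region without an identifier, that direction was fixed by the single day that let them in. Whether such neighbours belong to 1 transcript was not tested.

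A pair on chromosome 2 differed. The region at positions 19689550 to 19699715 had 3.56, 3.02 and 3.56 FPKM on ethylene day 7 and 7.22 and 6.57 FPKM on ethylene day 1, whereas Mba02_g05610, 3638 bp away, had 8.52, 9.49 and 8.49 FPKM on ethylene day 7 and 1.26 and 1.68 FPKM on ethylene day 1. The first was called lower and the second higher on day 7. They were let in by day 1 alone and by day 7 alone, so their opposite directions were fixed by the choice. The other pairs were Mba05_g01130 with Mba05_g01170, Mba07_g10310 with Mba07_g10340, Mba09_g19420 with Mba09_g19430, Mba04_g21080 with Mba04_g21110, Mba06_g17500 with Mba06_g17560, and Mba11_g03160 with Mba11_g03210, at distances of 16826 to 46795 bp. Mba05_g01130 and Mba05_g01170 were both higher on day 7, with ethylene day 7 means of 5.79 ± 0.822 and 6.23 ± 1.03 FPKM (SD, n = 3) and ethylene day 1 means of 1.01 ± 0.153 and 0.495 ± 0.154 FPKM (SD, n = 2). Mba09_g19420 and Mba09_g19430 were both lower on day 7, with ethylene day 7 means of 7.90 ± 2.28 and 6.39 ± 0.835 FPKM (SD, n = 3) and ethylene day 1 means of 15.9 ± 1.18 and 14.9 ± 1.73 FPKM (SD, n = 2). In the pair on chromosome 4 the first region belonged to day 1 and the second to day 7, with means of 0.772 and 8.40 FPKM on ethylene day 7 and of 12.3 and 0.252 FPKM on ethylene day 1. Here, and for Mba05_g01130 with Mba05_g01170, the directions were again fixed by the single day that let each region in.

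The nearest tested regions that were not members gave the surroundings. Within 50 kb of members there were 306 of them. On day 7, 14.7% of these were called higher in ethylene-treated fruit and 3.92% lower, beside 8.75% and 4.71% of all tested regions. On day 1, 21.2% were called higher and 21.6% lower, beside 17.1% and 24.8% of all tested regions. For the 171 neighbours within 5 kb the shares were 14.6% higher and 4.09% lower on day 7, and 22.8% higher and 17.5% lower on day 1. The median difference between ethylene-treated and control fruit was -0.03 on day 7 and -0.05 on day 1 among the 306 neighbours, on the log2(FPKM + 1) scale. These regions are ones that did not pass the rule, which used the same values, while all tested regions include the members. The neighbours also share libraries with the members, and the differences from the background were not tested.

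**Figure D4:**
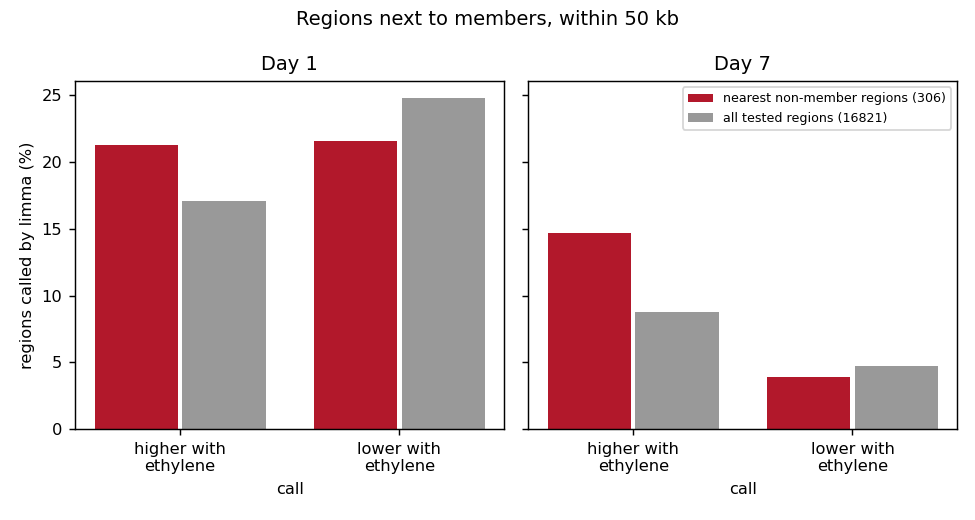
Percentage of regions called by limma as higher or lower in ethylene-treated than in control fruit, on day 1 (left panel) and day 7 (right panel), for the 306 nearest non-member regions within 50 kb of members (red) and all 16821 tested regions (grey). Bars are shares without error bars, and on day 7 the red bar for higher regions stands at 14.7% beside 8.75%.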

How the data were processed

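The 10 libraries were made from pulp RNA of ethylene-treated and control bananas. Per the study's methods and the labels, the authors checked reads with FastQC 0.11.8, trimmed them with Trimmomatic 0.38.0, aligned them with Tophat2 to the DH PKW v1.1 assembly and ran Cufflinks on every library. The deposited values are FPKM, 1 table per library of 43558 to 53992 rows, with bounds and a status for each locus. The tables hold no read counts and strand options are not stated. The study gives total and mapped reads for every library, but these were not used here, since FPKM is already scaled to them and the fragments behind a locus are not in the tables. The number of libraries therefore limits the precision. Loci assembled by Cufflinks have numbers of their own in each library, so rows were joined by position. Regions may therefore hold more than 1 gene, and loci of unequal length are added up in them.

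Loci of at least 300 bp were merged per chromosome, and the rule was applied to group means in Python 3.11.15 with pandas 2.3.3. For the 16821 regions with a mean of at least 1 FPKM, limma 3.58.1 (R 4.3.3) was run on log2(FPKM + 1) with 1 mean for each group, trended variances, two-sided tests and Benjamini-Hochberg adjustment over all regions at 0.05. The test was checked on simulated data. The members and lists were chosen with earlier results of these data known. Named members were the 10 highest on each ethylene day, the 5 called higher and the 5 called lower on ethylene day 7 with the largest differences and no overlap, the members and regions next to each threshold, and members within 50 kb of each other. Members at 0 in all controls, those resting on 1 library, the longest member and the listing by level were added after their values were seen. Alternatives were other pseudocounts, filters, scalings, locus lengths, thresholds, layout, a replicate block and leaving out each library. In member rows whose bounds corresponded to under 20 fragments, 65.7% of 709 were within 0.01 of a whole number, so counts were not rebuilt and no count test was run. The RefSeq table gave locus tags and no products or sequences, so the planned gene lists, promoter motifs and protein comparisons were not run. All positions are those of the deposited tables.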

Additional observations from a re-analysis of the deposited data

Results flagged for a closer look

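The difference between ethylene-treated and control fruit was itself compared between day 7 and day 1, with an interaction term in the limma fit. It differed in 97 of the 171 members at an adjusted p below 0.05: in 27 the difference from control was larger on day 7, and in 70 it was smaller. Over all 16821 tested regions, 8.31% were called in the first direction and 5.90% in the second. The control levels of members were held below 1 FPKM by the rule, so these calls follow closely from the comparison of the ethylene days already described, and the sets let in by a single day have their direction fixed.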

How the results depend on the processing

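The number of members followed the thresholds: 110 when every library had to pass, 110 with control means under 0.5 FPKM, 305 with control means under 2 FPKM, 429 with an ethylene mean of at least 2 FPKM, 82 with at least 10 FPKM, and 36 when regions had to have the same span in all tables, an alternative chosen after seeing the data. The number also moved with scaling, to 198 with median-of-ratios size factors and 133 with libraries scaled to equal sums over regions. With the paired-end libraries alone it was 161, of which 147 were shared with the main set. Leaving out 1 library at a time gave 165 to 179 members. Between ethylene day 7 and day 1, 42 of 58 members tested were called with a filter of a mean of at least 5 FPKM (17 higher, 25 lower), and 31 of the 36 with the same span (8 higher, 23 lower, also added later), since fewer members were tested. Leaving out 1 library gave 100 to 133 calls, the lowest without ethylene day 1 C (100) and A (101). With median-of-ratios scaling the median of all regions moved from 0.11 to -0.01, that of members was -1.07, and 37 members were higher and 98 lower. Between control day 7 and day 1, 2 members were called with a pseudocount of 0.1 FPKM, 1 without the filter and 1 with layout as a term, the cause of which was not tested, and 0 without any 1 library. The control groups alone gave no value, because no member passed the filter there. With the replicate letter as a replicate block, 129 members were called between the ethylene days (38 higher, 91 lower) and 0 between the control days, and no named member changed its call. The letters were not shown to pair libraries: deviations from the group means correlated at -0.041 (A) and -0.0234 (C) between the ethylene days and at 0.248 (A) and 0.0547 (B) between the control days. Of the named members, Mba04_g31600 lost its call with a pseudocount of 0.1 FPKM (0.76, limma adjusted p = 0.138) and without 4 of the ethylene libraries in turn, and the chromosome 3 region at positions 1953909 to 1956788 gained one under 3 alternatives (-0.61 to -0.46). Mba07_g14170, not called in any fit, turned from -0.03 to 0.19 with quantile normalization, 0.08 without ethylene day 7 C and 0.09 without ethylene day 1 C, and no other named member changed direction. Without fragment counts per locus, little can be said of the lowest levels.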
